A study of Malus domestica with 8 samples.

Results

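The subject is a run of neighbouring apple features whose identifiers read MD14G1000100 to MD14G1073800, the first stretch of the identifiers that carry 14 in their chromosome field. The files list 735 identifiers in that range. A feature was counted as a member when it had at least 10 rounded reads in 2 or more of the 8 libraries, and 460 of the 735 (62.6%) met this, out of 32483 features of the whole table that met the same filter. Of the 275 left out, 147 had 0 reads in every library, and none of the other 128 had more than 16 reads in any library. The members were chosen by measured values, since the ends of the run were set in an earlier look at these data on the log2 differences between the line mdagg-2 and the wild type. Every comparison of a line with the wild type is therefore a description of the members and carries no test of them.

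The libraries were made from leaf RNA of the apple cultivar 'Gala' (Malus domestica). The wild type (wt) is non-transformed 'Gala', and mdagg-2, mdagg-3 and mdagg-4 are transgenic lines in which CRISPR/Cas9 was directed at MdAGG. There were 2 libraries in each of the 4 groups, described in the series as leaf bulks from independent experiments. All plants, wt included, had been grown in a greenhouse for 8 weeks at 22 °C and 80% relative humidity, and their leaves were taken 3 days after a spray of 0.2 g/l acibenzolar-S-methyl (ASM). No unsprayed plants and no transformed plants without the knock-out were among the groups, so transformation and the knock-out cannot be told apart here. The labels give no number of plants in a bulk, and do not say from how many transformation events each line came.

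Apple identifiers of this kind are numbered along each chromosome, so features with close numbers are usually neighbours. Neighbouring plant genes mostly encode unrelated proteins and are switched on and off one by one, so a long row of neighbours normally holds genes that differ widely in level and in response. ASM is a functional analogue of salicylic acid that induces defence genes in leaves, and agglutinins are carbohydrate-binding lectins that belong to such defences. The run was therefore described in 2 ways, as 1 distribution and feature by feature.

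Identifiers are printed alone, with no gene name or role, because 0 of them matched the reference gene table. Neither MdAGG, the target of the knock-out, nor leaf markers could be checked by name for the same reason. Library totals ranged from 28591909 to 36995911 estimated reads. Members had a median level of 13.8 CPM, the count of a feature scaled to the library's size with trimmed-mean (TMM) factors, and ranged from 0.129 to 1278.4 CPM. Their median transcript length was 1510 bases, beside 1513 for the features elsewhere. The first principal component of all features, with 46.2% of the variance, had mdagg-2 replicate 1 at one end and mdagg-4 replicate 2 at the other, so it did not follow the groups.

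As a whole the run held more of the RNA in each of the 6 knock-out libraries than in either wt library. The members took 1.45% and 1.52% of all reads in wt, 1.73% and 1.98% in line mdagg-2, 1.88% and 1.88% in line mdagg-3, and 2.04% and 2.01% in line mdagg-4. Summed TPM, which is scaled for transcript length, gave 1.28% and 1.37% in wt, 1.45% and 1.73% in line mdagg-2, 1.66% and 1.62% in line mdagg-3, and 1.79% and 1.85% in line mdagg-4. The groups of wt and knock-out libraries did not overlap in either measure. In CPM the members summed to 14628 and 14585 in wt, 18957 and 19194 in line mdagg-2, 19864 and 18978 in line mdagg-3, and 20693 and 18073 in line mdagg-4. The most abundant member, MD14G1072000, held 5.19% to 8.7% of these sums, and without it the sums were 13817 to 13861 in wt and 17116 to 18894 in the lines. RNA came from whole leaf bulks, in which more cells of a type and more RNA per cell cannot be told apart.

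Taken member by member, the shift was of nearly the same size in every line. Against the wt mean, the median member lay on the log2 scale at 0.035 and −0.035 in the wt libraries themselves, 0.335 and 0.371 in line mdagg-2, 0.391 and 0.345 in line mdagg-3, and 0.381 and 0.352 in line mdagg-4. Over the features elsewhere the same medians ran from −0.014 to 0.007. In the 12 pairings of 1 knock-out with 1 wt library the median member differed by 0.294 to 0.417. Between replicates of a group it differed by −0.071 in wt, 0.049 in mdagg-2, −0.032 in line mdagg-3 and −0.031 in line mdagg-4. Every pairing of a knock-out with a wt library thus exceeded every within-group difference.

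**Figure D1:**
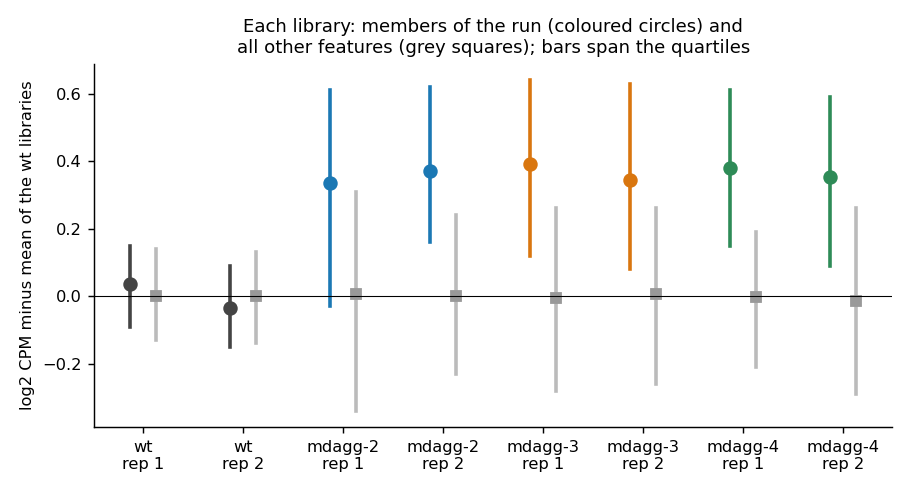
Log2 CPM minus the mean of the wt libraries in each of the 8 libraries, as the median over the members (coloured circles) and over all other features (grey squares), with bars from the lower to the upper quartile. The wt medians lie at 0.035 and −0.035, and the 6 knock-out medians lie between 0.335 and 0.391.

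In the fitted values the median log2 difference of the members was 0.372 when the lines were averaged, a ratio of 1.29. It was 0.369 for mdagg-2, 0.396 for mdagg-3 and 0.389 for mdagg-4, beside 0.01, 0.001 and −0.007 over the features elsewhere. The rest of the identifiers with 14 in the chromosome field, 1083 features, had medians of −0.005, 0.012, −0.006 and 0.018 in the same order. These comparisons share the wt libraries, and are given side by side for that reason. Of the 460 members, 417 (90.7%) were above 0 in the mean of the lines, 43 (9.35%) were at or below 0, where 51.3% of all features were, and 324 (70.4%) were above 0 in each of the 3 lines, where 19.1% of all features were.

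At many members the knock-out and wt libraries did not overlap. All 6 knock-out libraries lay above both wt libraries at 168 members (36.5%), beside 2.89% of all features, and below both at 2 members (0.435%), beside 1.55%. At 71 members (15.4%) 5 of the 6 knock-out libraries exceeded both wt libraries, beside 5.74% of the features elsewhere. At 62 members (13.5%) 4 did, which is near the 10.5% elsewhere, and at 8 members (1.74%) none did, beside 17.8%. Line by line, both libraries exceeded both wt libraries at 248 members (53.9%) in mdagg-2, beside 15.3% of all features. In mdagg-3 this held for 261 members (56.7%, all features 16.9%), and in mdagg-4 for 271 members (58.9%, all features 13.5%). In the other direction the counts were 16 in mdagg-2 (all features 14.8%), 25 in mdagg-3 (16.4%) and 16 in mdagg-4 (14%). The rule used the contrast of mdagg-2 with wt, and the other lines were set against the same wt libraries. The shares therefore describe the run and support nothing further.

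At single members the shift, 0.372 at the median, exceeded the standard error, but not by enough to pass adjustment in edgeR. The median standard error of a member's mean-of-lines difference was 0.249, and edgeR's quasi-likelihood test with Benjamini-Hochberg adjustment called none of the members in the mean of the lines (0% of all features), in mdagg-2 (0.00308%), in mdagg-3 (0%) or in mdagg-4 (0.00308%). At an unadjusted p under 0.05 the counts were 122 members for the mean of the lines, all of them higher (2.89% of all features in either direction), 90 for mdagg-2 (3.66%), 87 for mdagg-3 (3.15%) and 70 for mdagg-4 (2.96%). All but 1 of the 90 were higher (2.05% of all features were higher and 1.61% lower), as were all of the 87 and all but 1 of the 70 (1.49% and 1.47%). DESeq2 on the same libraries called 2 members higher for the mean of the lines (0.169% of all features), 1 for mdagg-2 (0.0942%), 2 for mdagg-3 (0.102%) and 1 for mdagg-4 (0.163%). It called none lower, where 0.0585%, 0.0283%, 0.0308% and 0.148% of all features were in the same order.

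Members near the middle of the distribution show what the shift looked like in a feature. MD14G1071700 had 69.3 and 59.6 CPM in wt, 83.5 and 86.9 in line mdagg-2, 79.1 and 88.7 in line mdagg-3, and 78.1 and 83.7 in line mdagg-4. All 6 knock-out values stood above both wt values, and the mean difference was 0.37 ± 0.15 (standard error) on the log2 scale. MD14G1042300 had 18.2 and 18 CPM in wt, 21.7 and 21.5 in line mdagg-2, 29.9 and 18.7 in line mdagg-3, and 28.7 and 20.4 in line mdagg-4. Here too all 6 knock-out values were higher, but those of mdagg-3 and mdagg-4 spread widely, with a mean difference of 0.37 ± 0.22. MD14G1005500, the most abundant of these, had 552.4 and 626.8 CPM in wt, 847.7 and 760.7 in line mdagg-2, 842.3 and 687.4 in line mdagg-3, and 851.9 and 589.1 in line mdagg-4. In this case 1 mdagg-4 library fell between the wt libraries, and the mean difference was 0.37 ± 0.25.

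The size of the shift did not follow abundance. Members were split into 5 bins of 92 by mean log2 CPM over all libraries, and from the least to the most abundant the median differences for the mean of the lines were 0.357, 0.407, 0.373, 0.37 and 0.371. The spread did follow abundance. The median absolute deviation (MAD, the median distance of members from their own median, unscaled) was 0.348, 0.222, 0.112, 0.115 and 0.13 in the same order, and features elsewhere in the same abundance ranges had 0.312, 0.169, 0.108, 0.0921 and 0.109. The share of members above 0 was 76.1%, 88%, 91.3%, 97.8% and 100%. In the most abundant bin, with mean log2 CPM from 5.52 to 10.24, every member was thus higher in the mean of the lines.

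The lines differed somewhat in the least abundant bin. There the medians were 0.397 for mdagg-2, 0.355 for mdagg-3 and 0.226 for mdagg-4, with log2 CPM from −2.67 to 1.17. Across the other 4 bins the medians ran from 0.319 to 0.38 in mdagg-2, from 0.378 to 0.428 in mdagg-3 and from 0.366 to 0.46 in mdagg-4. The differences between bins of a line were not tested.

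**Figure D2:**
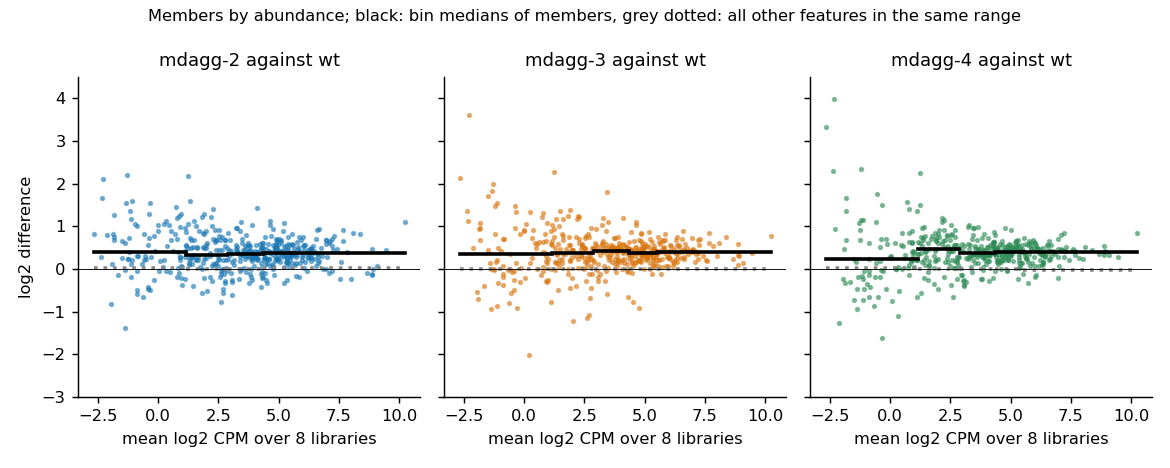
Log2 difference from wt of each member (points) by its mean log2 CPM over the 8 libraries, with 1 panel for each line, the medians of 5 bins of 92 members (black) and those of all other features in the same ranges (grey dotted). Points scatter most at low abundance, and every black line lies above 0, the lowest at 0.226 in the least abundant bin of mdagg-4.

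Along the run the median of the averaged lines stayed above 0 from end to end in identifier order. In 10 consecutive bins of 46 members the medians for the mean of the lines were 0.395, 0.409, 0.392, 0.33, 0.401, 0.328, 0.365, 0.373, 0.334 and 0.451. In a moving window of 15 consecutive members, all 446 window medians were above 0 in the mean of the lines and in each line. For the mean of the lines they ran from 0.18, in the window that starts at MD14G1065000, to 0.54, in the window that starts at MD14G1027100. The lowest and highest window medians were 0.12 and 0.66 in line mdagg-2, 0.16 and 0.55 in line mdagg-3, and 0.13 and 0.66 in line mdagg-4. Of 31771 such windows elsewhere, the central 95% lay between −0.17 and 0.15 for the mean of the lines, with extremes of −3.37 and 0.58, and all 446 medians of the run exceeded the upper of these limits. For single lines that upper limit was 0.26 in mdagg-2, 0.23 for mdagg-3 and 0.18 for mdagg-4. Of the 446 medians, 351, 414 and 439 exceeded it, so the lowest stretches of each line did not pass the limit. The highest windows elsewhere reached 0.66, 0.86 and 0.64 in the same order. The files hold no coordinates, so distances between members in bases are not given.

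**Figure D3:**
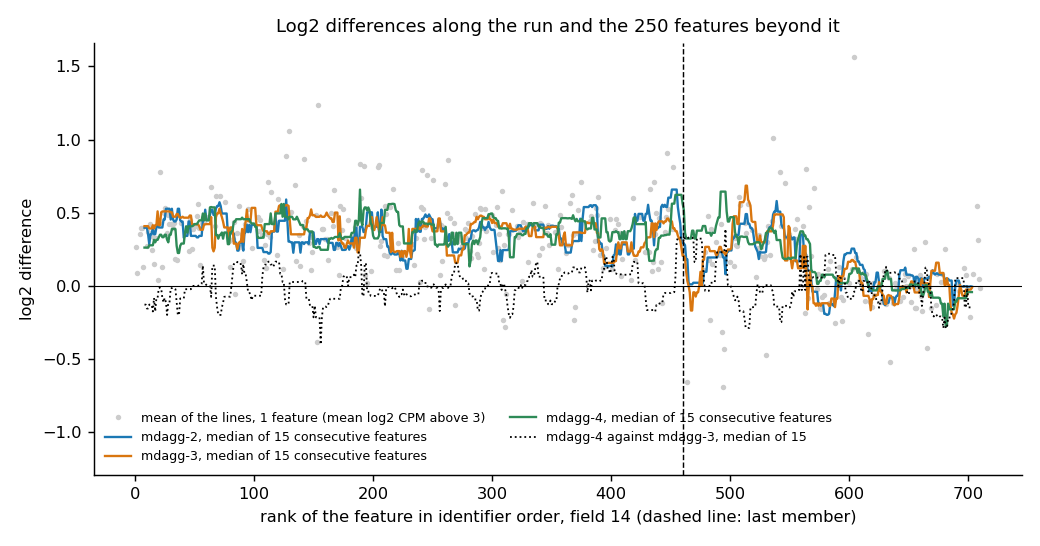
Log2 difference (vertical) by rank in identifier order, for the run and the 250 features beyond it, with the last member at the dashed line. Coloured lines are moving medians of 15 features for each line against wt, the dotted line is that of mdagg-4 against mdagg-3, and grey points are the averaged lines for features with a mean log2 CPM above 3. The coloured lines stay between 0.12 and 0.66 within the run.

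The lines were highest at different places along the run. Bin medians ran from 0.29 to 0.515 in mdagg-2, from 0.262 in the ninth bin to 0.47 in the first in mdagg-3, and from 0.294 in the first bin to 0.437 in mdagg-4. The first bin was therefore the highest for mdagg-3 and the lowest for mdagg-4. Whether the positions differ between lines was not tested.

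At the first end the run begins with the lowest identifier of the field, so no neighbour lies beyond it. The first member, MD14G1000100, had 85.0 and 88.2 CPM in wt, 111 and 109 in line mdagg-2, 103 and 100 in line mdagg-3, and 106 and 98.3 in line mdagg-4, all 6 above both wt values, with a mean difference of 0.27 ± 0.15. The last member, MD14G1073800, had 29.3 and 30.4 CPM in wt, 42.3 and 30.7 in line mdagg-2, 41.9 and 32.8 in line mdagg-3, and 37.2 and 31.0 in line mdagg-4, again all above wt, and again with a mean difference of 0.27, here with an error of 0.19. The last 20 members had median differences of 0.63 for mdagg-2, 0.39 for mdagg-3 and 0.4 for mdagg-4. The first 20 features beyond them had 0.01, −0.02 and 0.43. The step at that point was thus seen in mdagg-2 and mdagg-3, the first of which set the end of the run, and not in mdagg-4. Over the first 50 features beyond, the medians were 0.14 in mdagg-2, 0.22 for mdagg-3 and 0.42 for mdagg-4. Features 51 to 100 beyond the last member had medians of 0.37 in mdagg-2, of 0.4 for mdagg-3 and of 0.3 for mdagg-4. Features 101 to 200 beyond had 0.04, 0 and 0.04, and the 883 after those had −0.01, −0.02 and −0.02. The end set by the rule therefore lay before the point after which the medians of all lines stayed near 0.

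The nearest kept feature beyond the end, MD14G1074400, had 233 and 293 reads in wt, 39 and 389 in line mdagg-2, 82 and 45 in line mdagg-3, and 201 and 818 in line mdagg-4. The wt libraries were close to each other, both mdagg-3 libraries were lower, and the replicates of mdagg-2 and of mdagg-4 lay on both sides of wt. Its mean difference was −0.33.

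Transcript length, which the rule did not use, had little bearing on the mean shift. In 5 bins from the shortest members (192 to 890 bases) to the longest (2352 to 7170 bases) the medians for the mean of the lines were 0.329, 0.363, 0.348, 0.37 and 0.434. Single lines were less even. In mdagg-2 the shortest bin stood at 0.283 and the longest at 0.484, beside −0.007 and 0.079 for features elsewhere of the same lengths. In mdagg-3 the order was the other way round, with 0.419 and 0.36 beside 0.047 and −0.048. Taken above the features elsewhere, the 5 bins came to between 0.345 and 0.413 for the mean of the lines.

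The comparison of mdagg-4 with mdagg-3 uses none of the libraries on which the ends of the run were set, and it could be tested. The median member differed by −0.009 on the log2 scale, beside −0.006 over the features elsewhere, and 48.3% of members were above 0. The MAD was 0.239 for the members and 0.281 for the features elsewhere, and 0.162 beside 0.223 above a mean log2 CPM of 3. Its direction depended on abundance. In the 5 abundance bins, from the least abundant, members had an MAD of 0.617, 0.325, 0.184, 0.136 and 0.185. Features elsewhere in those ranges had 0.493, 0.304, 0.227, 0.21 and 0.235. Members thus spread more than other features in bins 1 and 2, and less in the more abundant bins. Both mdagg-4 libraries exceeded both mdagg-3 libraries at 96 members (20.9%), beside 21.2% of all features, and lay below both at 90 members (19.6%), beside 21.4%. These shares are near the background.

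By edgeR's quasi-likelihood test with Benjamini-Hochberg adjustment, no member differed between mdagg-4 and mdagg-3 (0% of all features called). At an unadjusted p under 0.05 there were 26 members, 5.65% beside 6.12% of all features, of which 7 were higher in mdagg-4 (all features 2.94%) and 19 lower (3.18%), and DESeq2 called none of the members, beside 0.0737% of features higher and 0.144% lower. Unlike that comparison, an F test over the 3 lines together includes the mdagg-2 libraries, on which the ends of the run were set against wt. The F test is therefore not independent of the rule. It called no member (0.00308% of all features). It had 12 members at an unadjusted p under 0.05 (2.61%, all features 3.18%), and in DESeq2 no member passed (all features 0.145%). A miss at 2 libraries a group does not show that the lines had equal levels.

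The 5 members with the smallest p between these lines all stood lower in mdagg-4. MD14G1070300 had 52.7 and 43.0 CPM in wt, 55.7 and 50 in line mdagg-2, 63.9 and 90.3 in line mdagg-3, and 40.7 and 34.9 in line mdagg-4. Both mdagg-3 libraries were above all others and both mdagg-4 libraries below all others, and mdagg-4 differed from mdagg-3 by −1.03 ± 0.23 (edgeR's quasi-likelihood test, unadjusted p = 0.00238, adjusted p = 0.691). MD14G1020200 had 41.7 and 28.6 CPM in wt, 50 and 35.8 in line mdagg-2, 50.9 and 58.7 in line mdagg-3, and 34.8 and 24.8 in line mdagg-4, a difference of −0.88 ± 0.28. It overlapped wt in mdagg-4 and exceeded it in mdagg-3. The window of 15 members that starts at this feature had the lowest moving median between the lines, −0.4, where the central 95% of windows elsewhere reached from −0.33 to 0.27.

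Less abundant members among these 5 were MD14G1009500 and MD14G1009700, numbers 73 and 75 of the run. MD14G1009500 had 1.02 and 1.06 CPM in wt, 0.999 and 0.474 in line mdagg-2, 1.21 and 1.08 in line mdagg-3, and 0.32 and 0.349 in line mdagg-4, and differed between mdagg-4 and mdagg-3 by −1.77 ± 0.46. MD14G1009700 had 0.905 and 0.571 CPM in wt, 1.83 and 1.25 in line mdagg-2, 1.83 and 1.89 in line mdagg-3, and 0.843 and 0.648 in line mdagg-4, and differed by −1.32 ± 0.39. The first exceeded wt only slightly in mdagg-3 and was low in mdagg-4, whereas the second was above wt in mdagg-2 and mdagg-3 and at the wt level in mdagg-4. Both had an edgeR adjusted p of 0.691.

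Around the common shift, members spread about as much as other features did around 0. For the mean of the lines the MAD was 0.159 beside 0.143 elsewhere, for mdagg-2 it was 0.225 beside 0.22, for mdagg-3 0.2 beside 0.198, and for mdagg-4 0.189 beside 0.178. The central 90% of members ran from −0.22 to 0.91 for the mean of the lines. Farther than 2 standard errors from the median of the run were 18 members above and 19 below, 8.04% together, and 4.18% of the features elsewhere lay as far from their own median. For single lines the shares were 6.3% beside 6.16% in mdagg-2, 6.3% beside 5.1% in mdagg-3 and 7.39% beside 4.37% in mdagg-4. In the mean of the lines and in mdagg-4 the members thus had more deviating features than the rest of the table, a difference that was not tested.

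Most members at or below 0 among the libraries of 1 replicate number were above 0 among those of the other. When the lines were set against wt among the libraries numbered 1 and again among those numbered 2, which share no library, the median member differed by 0.309 and 0.374. Across the 460 members, which are not independent replicates, the differences had a Pearson r of −0.0124, and across the features elsewhere it was −0.0417. Above a mean log2 CPM of 3, r was −0.17 for the members and −0.314 for the features elsewhere. With r below 0 elsewhere too, an r near 0 does not by itself show that deviations fail to recur. The cause of these correlations was not tested. There were 102 members at or below 0 in the first set and 71 in the second, and 25 in both. These 25 are 24.5% of the 102, where 15.4% of all members were at or below 0 in the second set. Of the 271 members with a mean log2 CPM above 3, 32 and 34 were at or below 0 and 4 in both. The 102 members that were at or below 0 in the first set had a median of 0.305 in the second.

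**Figure D4:**
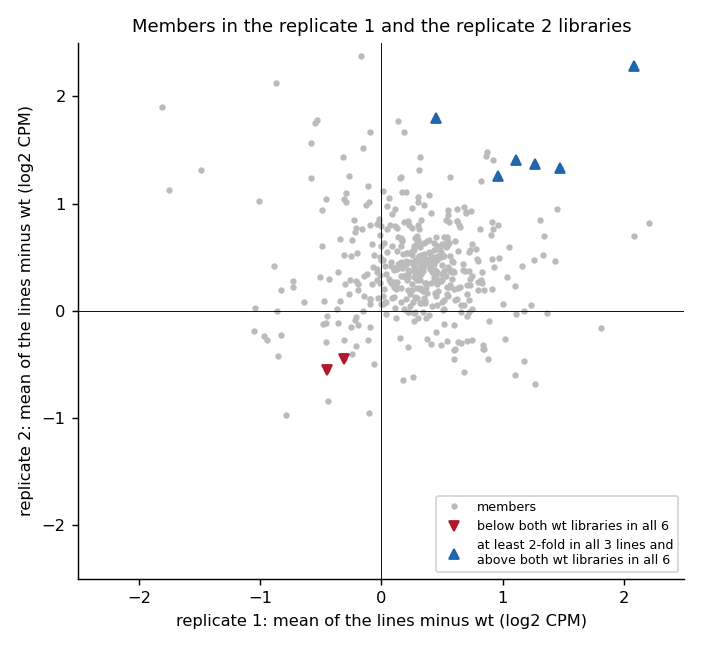
Log2 CPM difference of each member for the averaged lines from wt among libraries numbered 1 (horizontal) and among those numbered 2 (vertical). Triangles mark the 2 members below both wt libraries in all 6 knock-out libraries and the 6 high escapes above both, and the other points form a cloud around the medians of 0.309 and 0.374 (r = −0.0124 over all members).

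A few members escaped the shift upwards. The mean of the lines was at least 1 on the log2 scale at 20 members (4.35%), where it was at 1.58% of all features. At least 1 on the log2 scale in all 3 lines were 7 members (1.52%), where 0.699% of all features were, and in 6 of the 7 all 6 knock-out libraries exceeded both wt libraries. Both limits were counted from 0 and not from the run's median of 0.372. Members therefore needed less beyond their run than other features did, and the shares are not alike in that respect. Of the 7, 4 had less than 1 CPM, and 2 of those, MD14G1011800 and MD14G1013100, had fewer than 10 reads in both wt libraries and so passed the read filter through knock-out libraries alone, as did 10 members in all. These had to stand high in the lines to be counted, and the number of high escapes therefore describes the filter as well as the run. The farthest of those with at least 1 CPM was MD14G1061500, with 0.992 and 0.493 CPM in wt, 4.07 and 2.71 in line mdagg-2, 4.29 and 2.92 in line mdagg-3, and 4.80 and 2.27 in line mdagg-4. Its knock-out values were nowhere near wt, and its differences were 2.19, 2.28 and 2.25 in the order of the lines, with a mean of 2.24 ± 0.46. MD14G1000400, the third member of the run, had 0.963 and 0.727 CPM in wt, 1.96 and 1.93 in line mdagg-2, 2.09 and 2.09 in line mdagg-3, and 2.41 and 2.07 in line mdagg-4. The lines were almost level with each other at about 1.3 ± 0.27 above wt.

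MD14G1016200 and MD14G1057200 also stood well above wt. MD14G1016200 had 3.06 and 2.23 CPM in wt, 5.82 and 4.77 in line mdagg-2, 7.59 and 4.92 in line mdagg-3, and 4.94 and 6.80 in line mdagg-4, with a mean difference of 1.13 ± 0.28. MD14G1057200 had 1.37 and 1.25 CPM in wt, 2.72 and 5.18 in line mdagg-2, 2.32 and 3.62 in line mdagg-3, and 2.64 and 2.44 in line mdagg-4, with a mean difference of 1.24 ± 0.34. Neither overlapped wt, although MD14G1057200 missed the limit of 1 in mdagg-4, where its difference was 0.96.

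The adjacent members MD14G1021400 and MD14G1021500, numbers 153 and 154 of the run, lay on opposite sides of wt. The second of them missed the limit of 1 in mdagg-4, where its difference was 0.79. MD14G1021500 had 5.37 and 5.95 CPM in wt, 13.5 and 10.9 in line mdagg-2, 25.5 and 14 in line mdagg-3, and 9.42 and 10.2 in line mdagg-4. It was above wt in all 6 libraries, with differences of 1.11, 1.80 and 0.79 and a mean of 1.23 ± 0.26, and between mdagg-4 and mdagg-3 it differed by −1.01 ± 0.30 (edgeR's quasi-likelihood test, unadjusted p = 0.0101, adjusted p = 0.691). Without mdagg-3 replicate 1 that last difference was −0.51. MD14G1021400 had 10.2 and 9.89 CPM in wt, 7.03 and 6.13 in line mdagg-2, 8.54 and 8.01 in line mdagg-3, and 9.04 and 7.75 in line mdagg-4. It was below wt in all 6 libraries, with differences of −0.61, −0.28 and −0.26 and a mean of −0.38 ± 0.16.

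**Figure D5:**
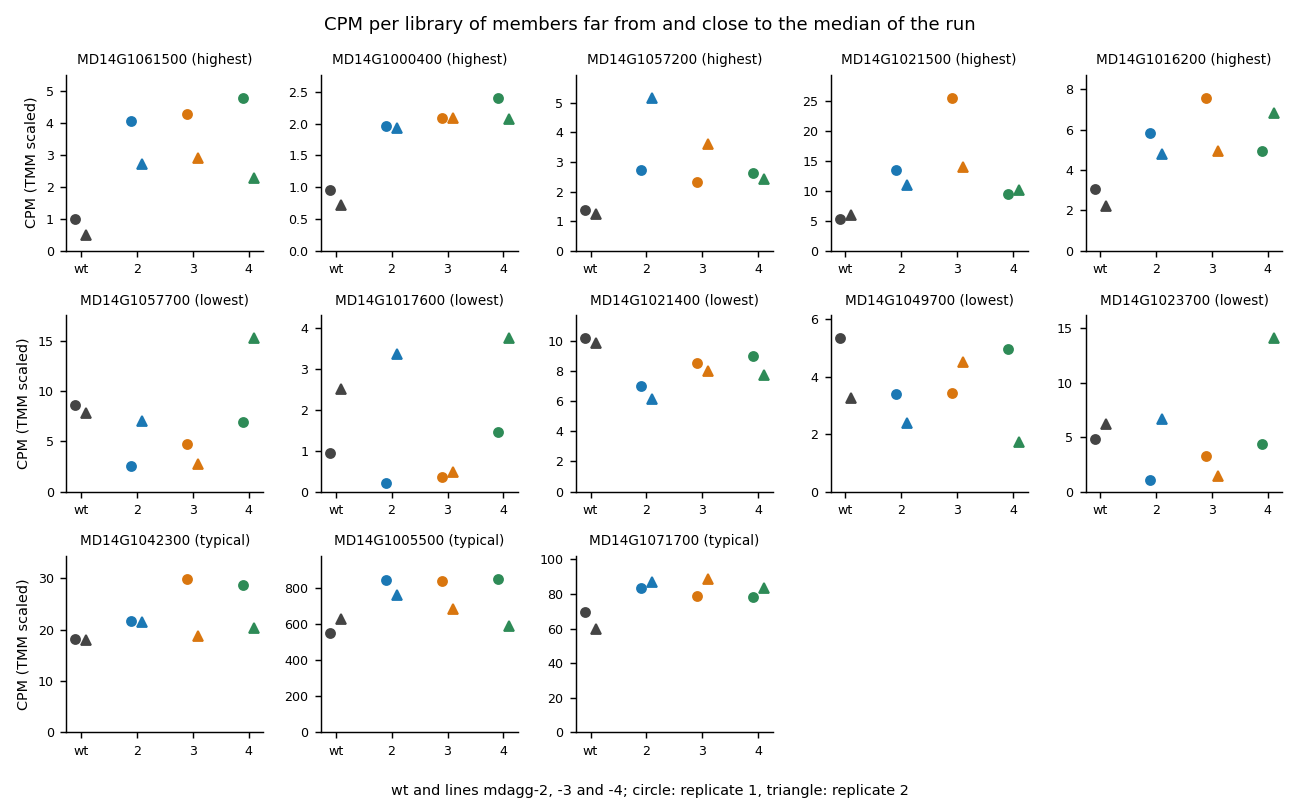
CPM (linear axes from 0) of named members in wt and lines 2, 3 and 4, with 1 panel for each of the 5 highest, 5 lowest and 3 typical members. Circles are replicate 1 and triangles replicate 2. MD14G1061500 lies between 2.27 and 4.80 CPM in the lines and at 0.992 and 0.493 in wt, and MD14G1021400 lies below wt in all 6 knock-out libraries.

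Escapes downwards were rare. At or below 0 in all 3 lines were 14 members (3.04%), where 18% of all features were, and 8 of the 14 had less than 1 CPM. This limit, too, was not counted from the median of the run, which lay above it. Apart from MD14G1021400, only MD14G1038100 was below both wt libraries in all 6 knock-out libraries. It had 0.671 and 0.623 CPM in wt, 0.448 and 0.406 in line mdagg-2, 0.556 and 0.445 in line mdagg-3, and 0.436 and 0.374 in line mdagg-4, with a mean difference of −0.55 ± 0.34. This member, and MD14G1049100 and MD14G1049300 which follow, were singled out after their values were seen.

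Downward escapes MD14G1049100, MD14G1049300 and MD14G1049700 lay close together, at numbers 311, 312 and 315 of the run. MD14G1049100 had 11.9 and 7.68 CPM in wt, 8.65 and 7.55 in line mdagg-2, 5.92 and 11.3 in line mdagg-3, and 8.55 and 6.28 in line mdagg-4. MD14G1049300 had 11.6 and 9.71 CPM in wt, 9.99 and 10.7 in line mdagg-2, 8.80 and 11.8 in line mdagg-3, and 10.2 and 10 in line mdagg-4. Both overlapped wt and lay at its level, with mean differences of −0.28 ± 0.29 and −0.06 ± 0.18. MD14G1049700 had 5.34 and 3.27 CPM in wt, 3.41 and 2.40 in line mdagg-2, 3.44 and 4.51 in line mdagg-3, and 4.97 and 1.74 in line mdagg-4, and also overlapped wt, with a mean difference of −0.35 ± 0.40. Without wt replicate 1 that difference was 0.04, and without wt replicate 2 it was −0.66, so its direction depended on 1 library.

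Members with the lowest means above 1 CPM were mostly ones whose replicates disagreed. MD14G1057700 had 8.64 and 7.87 CPM in wt, 2.55 and 7.07 in line mdagg-2, 4.71 and 2.70 in line mdagg-3, and 6.92 and 15.3 in line mdagg-4, with a mean difference of −0.50 ± 0.43. MD14G1023700 had 4.85 and 6.23 CPM in wt, 1.07 and 6.63 in line mdagg-2, 3.30 and 1.45 in line mdagg-3, and 4.33 and 14.1 in line mdagg-4, with a mean of −0.34 ± 0.67. MD14G1017600 had 0.934 and 2.49 CPM in wt, 0.207 and 3.35 in line mdagg-2, 0.36 and 0.473 in line mdagg-3, and 1.45 and 3.74 in line mdagg-4, with a mean of −0.46 ± 0.82. All of them were lowest in mdagg-2 replicate 1 and highest in mdagg-4 replicate 2, the libraries at the ends of the first principal component, and that component's part in them was not tested. Without those libraries their means were −0.55, −0.44 and −0.44 in the order given. Leaving out 1 library at a time moved them further. MD14G1017600 went to 0.42 without wt replicate 2 and to −1.49 without mdagg-2 replicate 2, so its direction depended on 1 library. MD14G1023700 went to −0.08 without mdagg-2 replicate 1 and to −0.95 without mdagg-2 replicate 2, and MD14G1057700 ranged from −0.32 to −0.81 when either mdagg-2 library was left out.

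Among the most abundant members the mean differences ran from 0.11 to 0.91, each within 2 standard errors of the run's median of 0.372. Whether these members differ from each other in their shift was not tested. MD14G1072000 had 767.8 and 768.1 CPM in wt, 1633.9 and 1663.0 in line mdagg-2, 1031.2 and 1606.4 in line mdagg-3, and 1799.6 and 957.0 in line mdagg-4, and per length it averaged 202.7 TPM in wt beside 424.3, 329.4 and 376.7 in the lines. All 6 knock-out libraries exceeded wt, by 0.91 ± 0.34 in the mean, although replicates of mdagg-3 and mdagg-4 lay far apart. MD14G1014600 had 458.5 and 543.9 CPM in wt, 508.3 and 541.6 in line mdagg-2, 603.2 and 493.6 in line mdagg-3, and 701.0 and 557.5 in line mdagg-4, with a mean difference of 0.17 ± 0.22 and overlapping groups. MD14G1016800 had 360.1 and 543.4 CPM in wt, 335.2 and 480.6 in line mdagg-2, 588.2 and 372.8 in line mdagg-3, and 604.7 and 590.1 in line mdagg-4, with a mean difference of 0.11 ± 0.28. Only its mdagg-4 libraries both exceeded wt, and the difference was −0.16 without wt replicate 1, −0.01 without mdagg-3 replicate 1 and 0.44 without wt replicate 2.

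MD14G1022900 had 353.9 and 516.9 CPM in wt, 389.3 and 416.5 in line mdagg-2, 684.6 and 402.7 in line mdagg-3, and 651.7 and 441.2 in line mdagg-4, with a mean difference of 0.18 ± 0.30 that became −0.08 without wt replicate 1 and 0.48 without wt replicate 2. Within each of mdagg-3 and mdagg-4, 1 library stood above wt and the other within its range. MD14G1005700 had the highest mean TPM of the run, 850.7, and 617.3 and 261.4 CPM in wt, 375.9 and 502.0 in line mdagg-2, 496.7 and 588.9 in line mdagg-3, and 379.6 and 789.7 in line mdagg-4. Its mean difference was 0.24 ± 0.40, and it was 0.98 without wt replicate 1, −0.25 without wt replicate 2 and 0.03 without mdagg-4 replicate 2, so that its size and direction depended on single libraries.

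The authors' deposited table of each line against wt held calls for 7 members at an adjusted p under 0.05, all of them higher. Among the tested members, 7 of 455 were called higher in mdagg-3 (1.54%, all features 0.365%), 1 of 460 in mdagg-4 (0.217%, all features 0.157%) and 0 of 456 in mdagg-2 (all features 0.0371%). None was called lower, beside 0.0279% of features for mdagg-2, 1.13% for mdagg-3 and 0.182% for mdagg-4. The authors' deposited table gave MD14G1061500 a log2 difference of 2.28 in mdagg-3 (adjusted p = 0.00285) and 2.25 in mdagg-4 (adjusted p = 0.0488), and MD14G1021500 one of 1.8 in mdagg-3 (adjusted p = 0.000115). The other 5 in the authors' deposited table were MD14G1002500, MD14G1017300, MD14G1020300, MD14G1029600 and MD14G1029800, at 1.02 to 1.38 in mdagg-3.

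DESeq2 on all 8 libraries also called MD14G1061500, in the mean of the lines, mdagg-3 and mdagg-4, and MD14G1021500, in the mean of the lines and mdagg-3. Its call in mdagg-2 was MD14G1039100, which the authors' deposited table did not call. This member had 75.1 and 67.1 CPM in wt, 135.0 and 136.7 in line mdagg-2, 106.2 and 107.5 in line mdagg-3, and 95.4 and 116.1 in line mdagg-4. It was above wt in all 6 libraries and highest in mdagg-2, with a mean difference of 0.70 ± 0.17.

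Reads shared between similar transcripts touched most members. Only 112 of the 460 (24.3%) had whole estimated counts in all 8 libraries, as did 25.5% of the features elsewhere, and at the other 348 some reads had been divided among features. The median differences for the mean of the lines were 0.357 for the 112 and 0.379 for the 348. The shift was therefore of like size with and without divided reads, while levels of single members with divided reads are uncertain.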

How the data were processed

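For each library the authors deposited a Salmon table which, per the file headers, gives transcript length, TPM and NumReads, an estimated count of reads that is not normalized. The submitters' processing notes name Salmon and DESeq2 without version. Which genome and annotation were indexed is not given in the sources used here. In addition, the authors' deposited table of each line against wt holds log2 fold changes and adjusted p-values, which were copied. Estimated counts were rounded, filtered at 10 reads in 2 libraries, scaled by TMM and fitted with edgeR 4.0.16 in R 4.3.3 (glmQLFit and glmQLFTest, all 8 libraries together, a mean for each group, leaving 4 residual degrees of freedom), with p-values Benjamini-Hochberg adjusted over 32483 features at 0.05. For log2 CPM the prior count was 2. The procedure was tested on simulated data. Those counts were drawn independently for each feature, without the variation between libraries that features share here, so that test says little about these libraries. Alternatives were DESeq2 1.42.0, other scaling and filters, a replicate block and each library left out.

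The members and lists were chosen with earlier results of these data known. Named members are the ends of the run, the 6 most abundant, the 5 highest and 5 lowest in the mean of the lines with at least 1 CPM, the 3 nearest the median with at least 10 CPM, those with the smallest p between lines, and those called in 2 or more lines of the authors' deposited table. Others are said in the text to have been chosen otherwise or were called by the table or tool named. P-values measure the spread between bulks of 2 experiments, and read totals limit counting error only.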

Additional observations from a re-analysis of the deposited data

Results flagged for a closer look

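At 3 named members the lines lay on opposite sides of wt, with both libraries of one line above both wt libraries and both libraries of another below them. MD14G1070300 was above wt in mdagg-3 and below it in mdagg-4, and mdagg-4 differed from mdagg-3 by −1.03 on the log2 scale. MD14G1009500 was above wt in mdagg-3 and below it in mdagg-2 and mdagg-4, by small margins in mdagg-3 (1.21 and 1.08 CPM beside 1.02 and 1.06 in wt) and in mdagg-2 replicate 1 (0.999 CPM), with −1.77 between mdagg-4 and mdagg-3. MD14G1001200 had 3.77 and 3.12 CPM in wt, 8.55 and 4.26 in line mdagg-2, 4.42 and 4.89 in line mdagg-3, and 2.76 and 2.22 in line mdagg-4, so that mdagg-2 and mdagg-3 were above wt and mdagg-4 below it, with −0.90 between mdagg-4 and mdagg-3. By edgeR's quasi-likelihood test with Benjamini-Hochberg adjustment none of these differences passed (adjusted p = 0.691 between mdagg-4 and mdagg-3, and 0.889 among the 3 lines). Such opposed lines occurred at 17 of the 460 members (3.7%) and at 5.34% of the features elsewhere.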

How the results depend on the processing

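The median difference of the run from wt kept its direction in each line under every alternative tried, and no member was called by edgeR with any library left out. With 1 library left out at a time the median differences ran from 0.333 to 0.406 in mdagg-2, 0.347 to 0.398 in mdagg-3, 0.337 to 0.414 in mdagg-4, and −0.041 to 0.01 between mdagg-4 and mdagg-3. Over members with whole estimated counts, an alternative chosen after seeing the data, the medians were 0.299 in mdagg-2 and 0.367 in mdagg-4. The labels do not say whether the same replicate number stands for the same experiment. Deviations of same-numbered libraries had correlations from −0.309 to 0.528, over 0.1 in 3 of 6 pairs of groups, so pairing was neither shown nor excluded, and with the replicate block the medians were 0.353, 0.39, 0.376 and −0.007 and the counts of calls did not move.

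Counts of called features over the whole table were 0 for the mean of the lines, 1 for mdagg-2, 0 for mdagg-3, 1 for mdagg-4, 0 between mdagg-4 and mdagg-3 and 1 among lines. Without a filter they were 6 for the mean of the lines, 2 for mdagg-4 and 4 among lines. DESeq2 gave 74, 39, 43, 101, 68 and 47 in the order above. Without mdagg-2 replicate 1 and mdagg-4 replicate 2, chosen after seeing the data, they were 1 for the mean of the lines and 0 for mdagg-2, mdagg-4 and among lines. With 1 library left out at a time they ran from 0 to 1 for the mean of the lines, mdagg-2 and among lines, from 0 to 2 for mdagg-4, and were 0 for mdagg-3 and between mdagg-4 and mdagg-3. The causes were not tested. Of 420 alternative values of single members, 7 changed sign. Moves were measured against an SD only for the mean of the lines, where 5 exceeded 1 SD, and not between mdagg-4 and mdagg-3. At 2 libraries a group, the median member's mean-of-lines shift was 0.372, beside a median standard error of 0.249. EdgeR called no member, and the least abundant members had the widest spread.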
